A study of Mus musculus with 6 samples.

Results

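SR proteins and hnRNPs are the best-known families of RNA-binding splicing regulators. Their genes were taken here by symbol, as all mouse protein-coding genes named Srsf followed by a number or Hnrnp, without pseudogenes. This gave 31 genes (11 SR protein genes and 20 hnRNP genes) among 54115 genes with a transcript in the files, and 30 of the 31 passed the filter that left 17152 genes for testing. RNA-sequencing had been performed on satellite cells (muscle stem cells) directly after their isolation, from 3 Pax7WT samples and 3 Pax7KR samples. Both genotypes were on the C57BL/6J strain. Pax7KR mice were made by CRISPR/Cas9 and carry arginine in place of a lysine that lies between the paired domain and the homeodomain of PAX7, the transcription factor that defines these cells, and Pax7WT mice carry the unmodified allele. The cells had been sorted from uninjured hindlimb muscle of young adult mice as α7-INTEGRIN+ and CD34+ and as negative for CD31, CD11b, SCA-1 and CD45. The labels do not give the sex of the mice or how many mice went into a library, so the p-values measure the spread between these samples.

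SR proteins carry RNA recognition motifs and a tail rich in arginine and serine, bind exonic enhancers and as a rule favour inclusion of the exon they bind. hnRNPs package nascent RNA and often oppose SR proteins at splice sites, but many also act in export, stability and translation. Both families commonly limit their own level. The protein promotes splicing of its own RNA into a form that includes a "poison" exon or removes an intron after the normal stop codon, and that form is degraded by nonsense-mediated decay, the pathway that removes mRNAs whose stop codon lies too far upstream of an exon junction. Transcripts of both kinds, and transcripts that keep an intron, are annotated for many of these genes, so the level of a gene and the transcripts that make it up are given separately below.

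Depth ran from 17822367 to 27908054 estimated reads per library. The 8 satellite cell markers, Pax7 and Itga7 among them, were detected in every library, with a summed level of 6287 to 6704 CPM (reads of the gene scaled to a fixed library size). Markers of other cells were low but not absent, with sums of 248 to 340 CPM for 6 endothelial genes (184 to 231 of it Tek), 634 to 717 for 6 fibro-adipogenic genes (571 to 633 of it Dpt), 245 to 349 for 5 smooth muscle and pericyte genes, 38.2 to 53.8 for 6 myofibre genes, 25.2 to 47.4 for 4 Schwann genes and 5.18 to 7.08 for 6 immune genes. The immune marker Adgre1 was at 0 in a library of each genotype. The 3 erythroid genes summed to 107, 118 and 217 CPM in Pax7WT and 204, 195 and 336 CPM in Pax7KR. A pair of libraries stood apart. Pax7KR replicate 2 had 38.4 CPM of the Y-linked gene Eif2s3y against 77.0 to 114 in the other libraries, and Pax7WT replicate 2 had a summed level of 25760 CPM for 9 genes of the dissociation response, such as Fos and Egr1, against 32168 to 42152 in the others. In bulk samples, fewer cells of a type and less RNA per cell cannot be told apart. The part of these differences in the results was not tested, and values without these 2 libraries are given where they bear on a result.

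Early stop codons are built into several of these transcripts. The 31 genes have 282 annotated transcripts, of which 135 are protein-coding, 75 keep an intron, 35 are annotated for nonsense-mediated decay and 37 are processed transcripts without an open reading frame. In 11 of the 35 decay transcripts the exon with the stop codon overlaps no exon of a coding transcript, as in a poison exon. In 12 of the 35 the stop codon is also that of a coding transcript. Its place in the decay transcript varies, for example exon 3 of 7 in Srsf6-201 and exon 10 of 13 in Hnrnpa1-204. The runs below are shown because they lead to the stop codon of the decay transcript in 9 genes, as examples of the different positions such a stop codon can take. Each is the start of an exon as far as its stop codon, 5′ to 3′ on the strand of the gene, with the stop codon in capitals, from GENCODE transcripts on GRCm38.
Srsf3-201: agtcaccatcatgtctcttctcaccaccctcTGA
Srsf7-203: gtttcttcgtttgagtcagtcgcctTGA
Srsf4-204: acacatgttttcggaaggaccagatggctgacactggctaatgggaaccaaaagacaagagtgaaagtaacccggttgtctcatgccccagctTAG
Srsf1-204: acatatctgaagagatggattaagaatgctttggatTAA
Hnrnpl-213: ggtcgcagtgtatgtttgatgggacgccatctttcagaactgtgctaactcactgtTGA
Hnrnpll-203: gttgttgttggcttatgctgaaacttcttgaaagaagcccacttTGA
Hnrnpu-206: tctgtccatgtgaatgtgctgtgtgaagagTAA
Hnrnpa1-204: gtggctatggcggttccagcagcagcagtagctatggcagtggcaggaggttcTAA
Hnrnph3-204: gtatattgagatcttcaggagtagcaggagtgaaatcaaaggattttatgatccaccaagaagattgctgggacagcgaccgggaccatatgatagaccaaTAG

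The Srsf3-201 run covers chr17:29039454-29039487 on the plus strand, the first 34 bases of an exon of 456 bases that no coding transcript uses. Srsf7-203 has the same arrangement, with 28 bases at chr17:80205054-80205081 on the minus strand in an exon of 460 bases. The exons of Srsf4-204 (188 bases, stop reached at chr4:131884295-131884390, plus strand), Hnrnpl-213 (70 bases, chr7:28817335-28817393, plus) and Hnrnpll-203 (83 bases, chr17:80044976-80045022, minus) also lie outside the exons of coding transcripts. The exon of Srsf4-204 is the first of its transcript, so its run begins at the annotated transcript start. In Srsf4-203 this exon begins further upstream, at 131884276, and has 207 bases. Those of Srsf1-204 (chr11:88049977-88050015, plus) and Hnrnpu-206 (chr1:178325281-178325313, minus) lie within exons of coding transcripts, whose untranslated parts are counted here. Each of these runs ends at a stop codon that no coding transcript uses. Each also holds a stop codon in every reading frame, so neither is coding along its whole length. Hnrnpa1-204 (chr15:103243959-103244014, plus) and Hnrnph3-204 (chr10:63018122-63018225, minus) are shown as the contrast, since each ends at a stop codon that a coding transcript of the gene also uses. Decay transcripts of this last kind are also annotated for Hnrnpa2b1, Hnrnpd, Hnrnpdl, Srsf2 and Srsf6.

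The levels of the genes were compared as TPM, a measure per transcript length. Hnrnpa2b1, which encodes a core hnRNP protein, had the highest mean level at 1091 TPM, and Srsf5 followed at 1085 TPM. Their ranges of 1017 to 1164 and 1012 to 1129 TPM over the 6 libraries overlapped. Hnrnpk, an hnRNP with KH domains, was at 903 TPM and Hnrnph1, which binds G-rich elements, at 890.3 TPM. A step separated these 4 from Hnrnpa1 at 476 TPM, Srsf2 at 432, Hnrnpl at 386 and Hnrnpu at 369. Between 254 and 307 TPM the means of 9 genes lay close together (Srsf1, Hnrnpdl, Srsf11, Hnrnpm, Srsf6, Hnrnpd, Hnrnpf, Hnrnpc and Hnrnpa3), and neighbours in that order overlapped in every case. Srsf9 at 58.6 TPM and Hnrnpll at 56.8 TPM were lowest among the genes tested. Srsf12 was listed at 0 in 3 libraries and at no more than 0.0699 TPM in the other 3, and was not tested. Of the 30 pairs of neighbours in the order of levels, 8 were separated in every library.

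**Figure D1:**
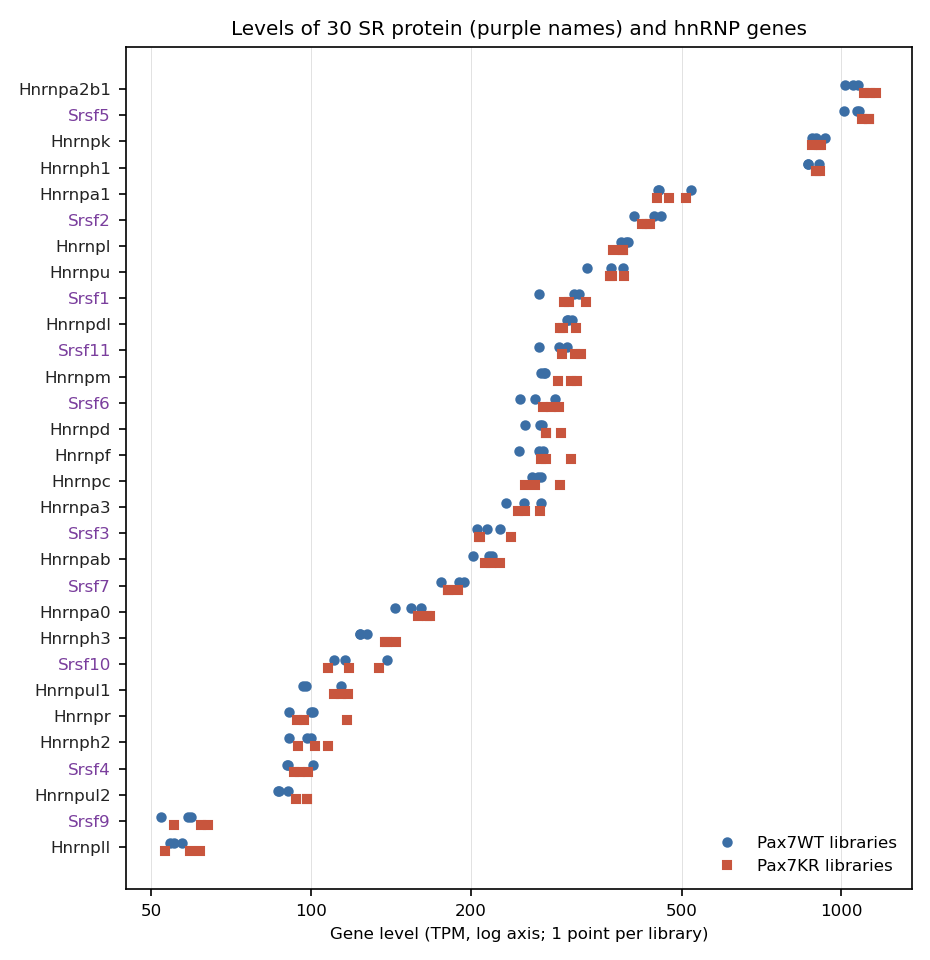
Level of each of the 30 tested genes in TPM on a log axis, with circles for the 3 Pax7WT libraries and squares for the 3 Pax7KR libraries. Hnrnpa2b1, Srsf5, Hnrnpk and Hnrnph1 lie between 864 and 1164 TPM in every library, and Srsf9 and Hnrnpll between 52.2 and 64.0 TPM.

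Levels of a gene were steady between libraries. The coefficient of variation of the CPM over all 6 libraries had a median of 4.62% and ran from 1.48% for Hnrnpk to 7.31% for Hnrnpc. Over the 5885 genes tested with a mean CPM at least that of the lowest member, its median was 6.15%. Above that floor these genes were not matched to the members in level, so the medians are not a like comparison. Summed over the 11 SR protein genes, the libraries held 2963, 3114 and 3093 CPM in Pax7WT and 2959, 2937 and 3113 CPM in Pax7KR. The 20 hnRNP genes summed to 6982, 7149 and 6814 CPM in Pax7WT and 6762, 6939.6 and 7029 CPM in Pax7KR. The genotypes overlapped in both sums of CPM. In TPM the SR protein genes summed to 2940, 3053 and 3073 in Pax7WT and 3178, 3135 and 3083 in Pax7KR. The hnRNP genes summed to 6626, 6743 and 6493 TPM against 6810, 7022 and 6793. Both sums of TPM were thus higher in every Pax7KR library, and the difference in sums was not tested.

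Which transcripts carried the reads differed widely between the genes. By share of a gene's estimated reads, averaged over the 6 libraries, coding transcripts took 100% in Hnrnpa0, Hnrnpab, Hnrnpf and Hnrnph2, none of which has an annotated decay or retained intron transcript, and under 50% in 8 of the 30 genes. Srsf3, the smallest SR protein, stood at the end of this order. Its coding transcript took 17.0% of its reads, against 39.4% for the decay transcripts with the poison exon shown above and 41.2% for transcripts that keep an intron. Srsf7, its close relative, gave 29.3% to coding transcripts, 24.8% to Srsf7-203 and 45.8% to retained intron transcripts. In Srsf11 65.0% and in Srsf5 48.6% of reads fell on retained intron transcripts, while Hnrnph1 had 72.2% on transcripts without an open reading frame.

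The 5 genes with the highest share of reads on decay transcripts were Hnrnpa1 at 44.2%, Hnrnpu at 43.9%, Srsf3 at 39.4%, Hnrnph3 at 34.1% and Hnrnpll at 27.2%. The share of Hnrnpu, which encodes a nuclear scaffold protein, rested almost wholly on Hnrnpu-206, which had a mean of 6620 reads per library beside 6569.9 for its coding transcript Hnrnpu-201. The Hnrnpu-206 transcript codes for 793 residues and Hnrnpu-201 for 800, and the 2 have lengths of 2844 and 7640 bases. The gap was wider per length, where Hnrnpu-206 took 51.9% of the TPM of the gene and Hnrnpu-201 took 18.6%.

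For reference, 27.6% of the 13971 protein-coding genes tested have an annotated decay transcript, as have 9 of the 10 SR protein genes and 10 of the 20 hnRNP genes tested. The median coding share of reads was 96.6% over all these protein-coding genes, 59.8% over the SR protein genes and 92.3% over the hnRNP genes. Coding transcripts took under 50% of reads in 6.99% of all the genes, in 4 of the 10 SR protein genes and in 4 of the 20 hnRNP genes. These shares depend on how fully each gene is annotated, and they are estimates that divide reads between transcripts with shared exons. They also depend on transcript length. The coding share of Srsf1 was 78.5% by reads and 42.2% by TPM, and that of Hnrnpa1 55.8% and 62.7%. In Srsf5, by TPM, retained intron transcripts took 26.2% and transcripts without an open reading frame 40.9%.

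**Figure D2:**
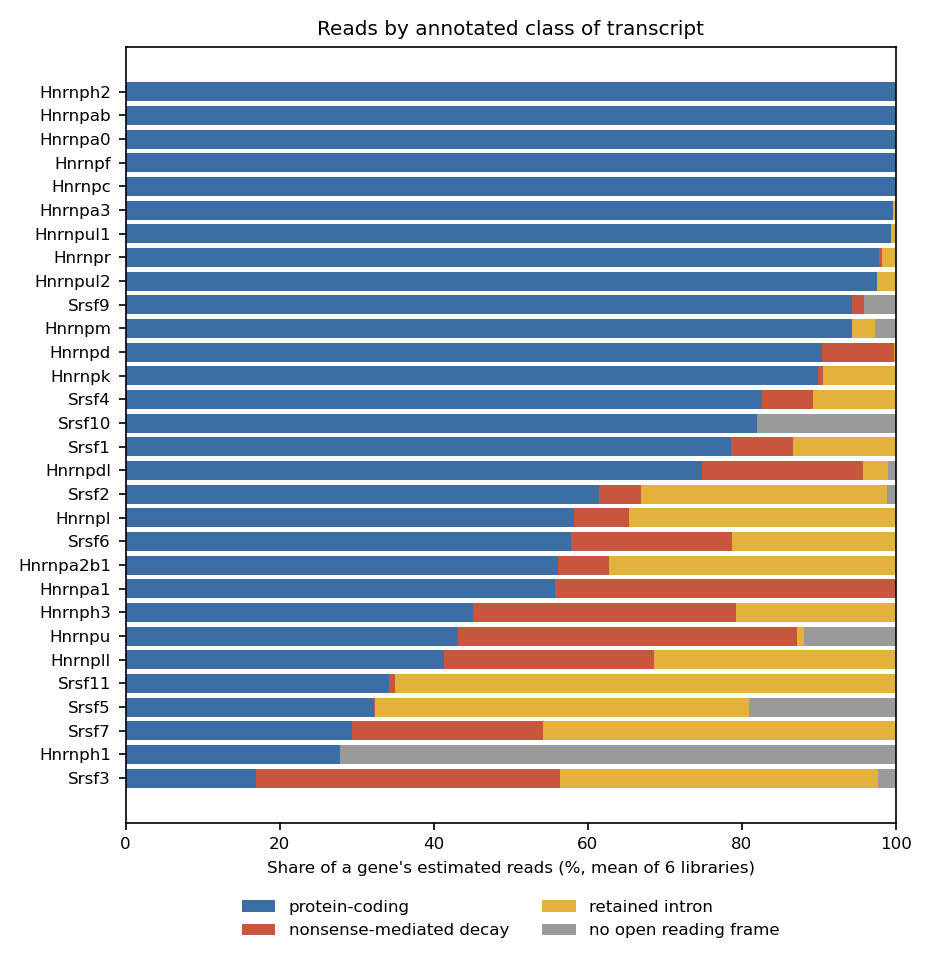
Share of a gene's estimated reads on protein-coding, nonsense-mediated decay, retained intron and processed transcripts (no open reading frame), as the mean of the 6 libraries in percent, ordered by the coding share. Srsf3 has the lowest coding share at 17.0%, and 8 of the 30 genes lie under 50%.

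The comparison of Pax7KR with Pax7WT asks whether a change in PAX7 acetylation moves these genes. None of the 30 genes was called at an adjusted p under 0.1 in edgeR's quasi-likelihood test, in which the share over all 17152 genes was likewise 0%. At an unadjusted p under 0.05 there was 1 of 30, or 3.33%, against 4.68% (803 genes) over all genes. DESeq2 called 30 genes in all and limma-voom 0, and none of them was an SR protein or hnRNP gene. The differences were small and narrowly bounded. The log2 fold changes of Pax7KR over Pax7WT ran from -0.12 to 0.13, and the 95% intervals of all 30 genes lay between -0.27 and 0.26, that is between 0.828 and 1.196 times the Pax7WT level.

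**Figure D3:**
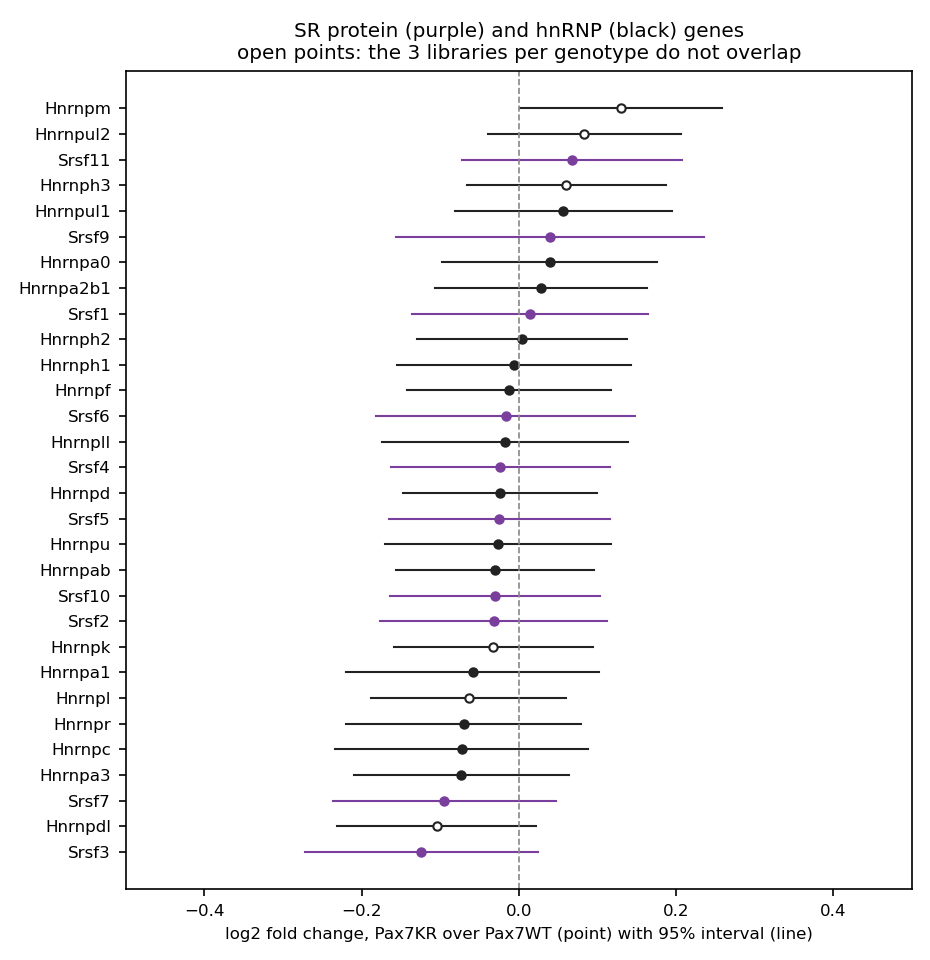
Difference of each gene between Pax7KR and Pax7WT as a log2 fold change (points) with its 95% interval (lines), for 10 SR protein genes and 20 hnRNP genes, open where the 3 libraries of each genotype do not overlap in CPM. The points lie between -0.12 and 0.13, and the interval of Hnrnpm alone does not include 0.

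By this log2 fold change, which is on the CPM scale, 20 of the 30 genes were lower and 10 higher in Pax7KR. Among the SR protein genes 7 were lower and 3 higher. The median log2 fold change was -0.02, beside -0.004 over all genes tested. Without Pax7WT replicate 2, in which 11 of the 30 genes had their highest level, 13 were lower and 17 higher, and without any of the other libraries 18 to 21 were lower. For 15 of the 30 genes, Hnrnpm, Hnrnpdl and Srsf3 among them, the direction stayed as it was whichever library was left out. With an offset for the mean length of the transcripts in use, which allows for the use of shorter or longer transcripts, 15 were lower and 15 higher. By mean TPM, Hnrnpk, Hnrnpl, Hnrnpdl, Srsf2, Srsf7 and Srsf10 were lower in Pax7KR and every other tested member was higher. The direction of the majority thus depended on the scale, and the differences in TPM were not tested.

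Among the hnRNP genes the smallest p belonged to Hnrnpm, which encodes a splicing repressor and activator that binds GU-rich RNA (chr17:33646233-33686860, minus strand). Its CPM was 276, 279 and 257 in Pax7WT and 292, 295 and 302 in Pax7KR, so that every Pax7KR library lay above every Pax7WT library. The means were 271 ± 11.7 and 296 ± 5.22 (SD, n = 3 each), and the log2 fold change was 0.13 with a standard error of 0.06 (edgeR, unadjusted p = 0.0481, adjusted p = 0.992). With the transcript length offset the log2 fold change was 0.10 (edgeR, unadjusted p = 0.172). Of the 31-base sequences of Hnrnpm, 14.0% also occur in March2, which had a mean of 57.2 CPM and a log2 fold change of -0.01.

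The libraries of the genotypes did not overlap in CPM in 6 of the 30 genes (20%), all hnRNP genes, against 10.3% of all genes tested. Hnrnpm, Hnrnpul2 and Hnrnph3 lay above in Pax7KR (5.14% of all genes did so), and Hnrnpdl, Hnrnpl and Hnrnpk below (5.19%). This depended on the scale. In TPM, Hnrnpm, Hnrnpul2 and Hnrnph3 also lay above, but Hnrnpdl, Hnrnpl and Hnrnpk overlapped. Hnrnpk, for example, had 881 to 933 TPM in Pax7WT and 882 to 918 in Pax7KR. Srsf5, Hnrnpa2b1 and Hnrnpd overlapped in CPM but lay above in Pax7KR in TPM, and no tested member lay below in TPM. The share of all genes without overlap in TPM was not counted. Hnrnpul2 (a relative of Hnrnpu) had 257, 269 and 255 CPM in Pax7WT and 279, 277 and 272 in Pax7KR. Hnrnph3, the shortest protein of the H family, had 90.3, 89.5 and 88.2 against 91.9, 92.4 and 95.04 CPM. Their log2 fold changes were 0.08 and 0.06.

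Hnrnpdl, a paralog and chromosomal neighbour of Hnrnpd, had 373, 373 and 359 CPM in Pax7WT and 331, 346 and 351 in Pax7KR, with a log2 fold change of -0.10 ± 0.06 (SE, edgeR, unadjusted p = 0.0990, adjusted p = 0.992). Hnrnpl, which binds CA repeats, had 369, 363 and 355 against 347, 340.4 and 352 CPM. Hnrnpk had 604, 592 and 602 against 588, 581 and 589.7 CPM, the smallest relative spread of all the genes. None of these differences passed the test, and their log2 fold changes were -0.06 for Hnrnpl and -0.03 for Hnrnpk.

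**Figure D4:**
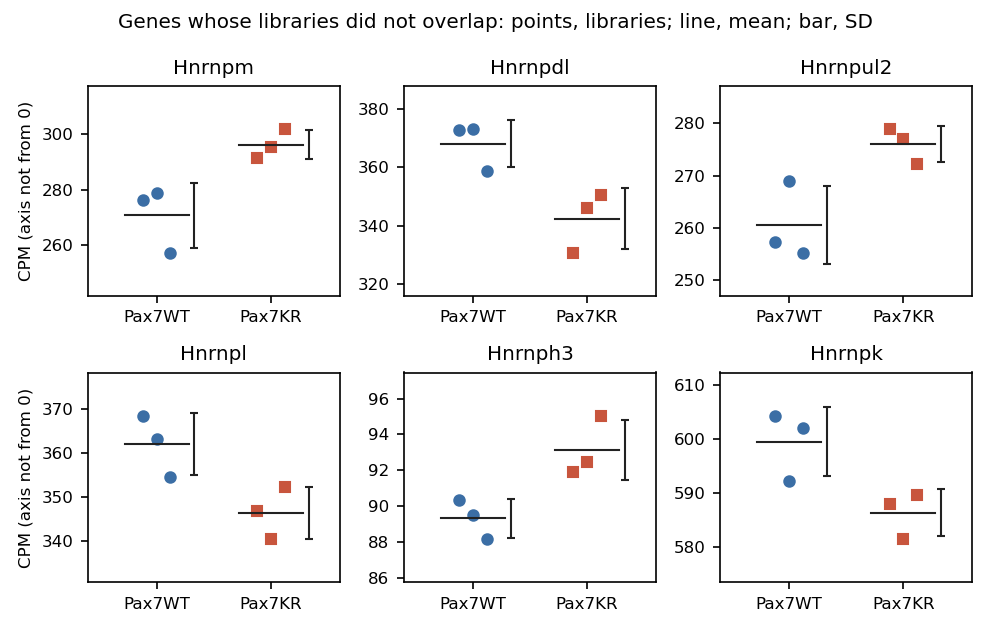
CPM by library for the 6 hnRNP genes whose libraries did not overlap between the genotypes, with circles for Pax7WT, squares for Pax7KR, a line at the mean and a bar of 1 SD, on axes that do not start at 0. Hnrnpm has 257 to 279 CPM in Pax7WT and 292 to 302 CPM in Pax7KR.

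Of the SR protein genes, Srsf3 had the largest difference. Its CPM was 298, 325 and 331 in Pax7WT and 269.7, 307 and 298 in Pax7KR, which overlapped (log2 fold change -0.12 ± 0.07 SE, edgeR, unadjusted p = 0.0949, adjusted p = 0.992). Srsf7 was at 177, 188 and 192 CPM in Pax7WT and 167, 167 and 187 in Pax7KR. Srsf11, an SR protein found with the spliceosome, was at 291, 282 and 280.4 CPM against 294, 279.5 and 321. The libraries of the genotypes overlapped in CPM for all 10 SR protein genes.

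The 3 genes of each family with the highest TPM also differed little in CPM. Srsf5 had 919.9, 867 and 927 CPM in Pax7WT and 861, 887 and 919 in Pax7KR, a log2 fold change of -0.02 with a 95% interval from -0.17 to 0.12. On the TPM scale it had 1069, 1012 and 1080 in Pax7WT and 1127, 1129 and 1093 in Pax7KR, all higher, and the length offset gave a log2 fold change of 0.02. Its direction thus depended on the scale. Srsf2, which shapes exon recognition and transcription elongation, had 338, 389 and 365 against 356, 344 and 368 CPM. Srsf1, the founding member of the family, had 269.7, 321 and 301 against 306, 293 and 301 CPM. Both genes varied more within Pax7WT than between the genotypes.

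For the hnRNPs, Hnrnpa2b1 had 796, 827 and 836 CPM in Pax7WT and 818, 847 and 844 in Pax7KR, with a log2 fold change of 0.03 (95% interval -0.11 to 0.16). On the TPM scale it had 1017, 1076 and 1052 in Pax7WT and 1135, 1164 and 1102 in Pax7KR, all higher. With the length offset its log2 fold change in edgeR was 0.05. Hnrnph1 had 814, 799.5 and 804 against 760.4, 778 and 869 CPM, with the highest and the lowest values both in Pax7KR. Hnrnpa3 had 474, 459 and 424 against 423, 429 and 438 CPM, and 26.6% of its 31-base sequences are shared with the pseudogene Gm5641, which was given 220.2 CPM on average. The level of Hnrnpa3 is therefore uncertain to the extent that reads were divided between these genes. Hnrnpul1 had 209, 185 and 188 against 199.7, 207 and 198 CPM. In all, 10 of the 31 genes share over 10% of their 31-base sequences with other genes, led by Hnrnpf at 38.5% and Hnrnpa1 at 29.3%.

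The ratio of decay to coding reads within a gene was compared next, since a shift towards a poison exon can leave the total unchanged. The ratio could be tested in 19 members among 1997 genes, and none was called at an adjusted p under 0.1 in limma, as in 0% of all genes (no other tool was run on it). Unadjusted p-values under 0.05 were found in 2 of the 19 (10.5%), against 4.46% of all genes (89). These 2 lay in opposite directions. For Hnrnph3 the decay reads per coding read were 0.947, 0.853 and 0.895 in Pax7WT and 0.690, 0.530 and 0.693 in Pax7KR, a log2 difference of -0.50 ± 0.18 (SE, limma, unadjusted p = 0.0253, adjusted p = 0.915). For Hnrnpl they were 0.0895, 0.0949 and 0.121 in Pax7WT and 0.134, 0.139 and 0.157 in Pax7KR, a log2 difference of 0.50 ± 0.19 (SE, limma, unadjusted p = 0.0357, adjusted p = 0.915).

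In both genes, 2 of the 19 tested, the ratios of the genotypes did not overlap. The share of all genes tested without such overlap was not counted, so this is not read as a result about the members. The Hnrnpl ratio is that of Hnrnpl-213, with the exon of 70 bases shown above, and the CPM of Hnrnpl was lower in every Pax7KR library. In TPM the genotypes overlapped for Hnrnpl, with 393, 397 and 384 in Pax7WT and 387, 387 and 371 in Pax7KR. In Hnrnph3, whose total was higher in every Pax7KR library, the decay transcript Hnrnph3-204 shares its stop codon with a coding transcript. Without Pax7KR replicate 2 or without Pax7WT replicate 1, neither gene had an unadjusted p under 0.05 in limma. Without Pax7WT replicate 3, Hnrnpl alone of these genes did. Without Pax7WT replicate 2, Pax7KR replicate 1 or Pax7KR replicate 3, Hnrnph3 alone of them did. Srsf6, which came next, had 0.333, 0.288 and 0.364 decay reads per coding read in Pax7WT and 0.351, 0.457 and 0.390 in Pax7KR, with overlap (log2 difference 0.28 ± 0.15 SE, limma, unadjusted p = 0.108, adjusted p = 0.915).

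Hnrnpu and Hnrnpa1, which had the most decay reads, gave narrower bounds, but Srsf3 did not. In Hnrnpu the ratio was 1.05, 0.980 and 1.02 in Pax7WT and 1.05, 1.01 and 0.992 in Pax7KR, with a 95% interval of the log2 difference from -0.18 to 0.18. In Hnrnpa1 this interval ran from -0.31 to 0.19. In Srsf3 the ratio was 2.24, 1.74 and 2.69 against 1.88, 2.79 and 2.95, and the interval from -0.38 to 0.75 left room for a shift in either direction. Over the 19 genes the median log2 difference was 0.06, beside 0.03 over all genes tested, with 11 higher and 8 lower.

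**Figure D5:**
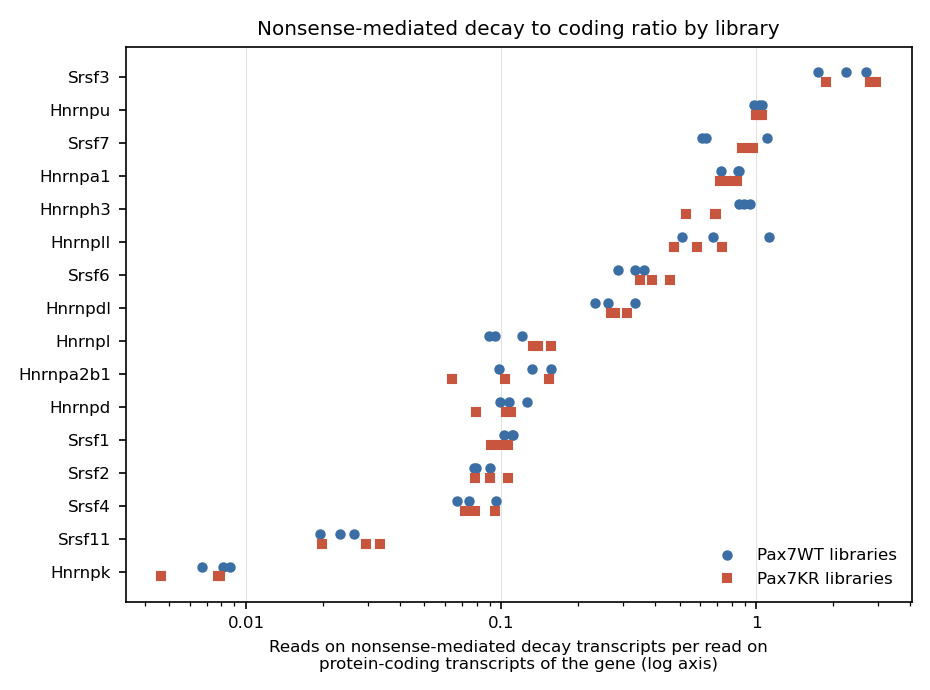
Reads on nonsense-mediated decay transcripts per read on coding transcripts, on a log axis, for the 16 genes with decay reads in every library, with circles for Pax7WT and squares for Pax7KR. Hnrnph3 lies lower in all 3 Pax7KR libraries and Hnrnpl higher, and the other genes overlap between the genotypes.

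The ratio of retained intron to coding reads was tested in 21 members among 5305 genes. None of the 21 was called (0% of all genes were, with limma as the only tool), and 0 of the 21 had an unadjusted p under 0.05, against 4.66% of all genes (247). The smallest p belonged to Srsf4, with 0.0992, 0.0962 and 0.144 reads on retained intron transcripts per coding read in Pax7WT and 0.154, 0.148 and 0.138 in Pax7KR (log2 difference 0.40 ± 0.21 SE, limma, unadjusted p = 0.0829, adjusted p = 0.930). Hnrnpul2 had 0.0252, 0.0290 and 0.0320 against 0.0130, 0.0231 and 0.0280. In Srsf7, where retained intron transcripts took more reads than coding transcripts, the ratio was 1.70, 1.51 and 1.85 against 1.35, 1.44 and 1.57, a log2 difference of -0.21 with a 95% interval from -0.51 to 0.09. In Srsf5, with 7737 to 12004 retained intron reads per library, the interval ran from -0.19 to 0.24. Without Pax7WT replicate 2, Hnrnpa2b1 and Srsf6 had an unadjusted p under 0.05 in limma. Srsf4 did so without Pax7WT replicate 3, and Hnrnpul2 without Pax7KR replicate 3. No member did so with any other library left out, and the smallest adjusted p of a member in these fits was 0.759.

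Single transcripts were tested for a change in their share of the gene. Among 240 transcripts of 29 members, 1 was called at an adjusted p under 0.1 (0.417%), against 0.445% (217) of the 48731 transcripts tested in all, and 10 had an unadjusted p under 0.05 (4.17%) against 3.56% of all. The transcript called was Hnrnpk-231, a coding form of Hnrnpk, with 842, 246 and 238 reads in Pax7WT and 0, 0 and 159 in Pax7KR (edgeR, log2 difference in use -2.90, adjusted p = 0.0629). It was at most 5.12% of the gene, and the limma alternative gave an adjusted p of 0.953. Without Pax7WT replicate 1, Pax7KR replicate 1 or Pax7KR replicate 2 its adjusted p was 0.914, 0.281 or 0.393 in edgeR. The call thus rested on the tool and on single libraries.

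Of the 10 transcripts with an unadjusted p under 0.05, 8 were at 0 reads in at least 1 library. Hnrnpf-209, a coding form, had 0, 358 and 310 reads in Pax7WT and 0 in every Pax7KR library (edgeR, adjusted p = 0.225), and was called without Pax7WT replicate 1 (edgeR, adjusted p = 0.0520). Others with a small p were Srsf11-216 (0 reads in Pax7WT, and 13, 24 and 0 in Pax7KR), the decay transcript Hnrnpr-206 (0 in Pax7WT, and 0, 76 and 22) and Hnrnpk-212 (0 in Pax7WT, and 6, 0 and 30), with adjusted p-values of 0.294, 0.307 and 0.726 in edgeR. Replicates of one genotype thus differed between 0 and up to 358 reads for the same transcript, and the part that the division of reads between overlapping transcripts had in this was not tested.

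The other genes of the splicing machinery were read from lists chosen together with the members. None of their genes was called in edgeR. Of the 20 SR-related proteins tested (such as Tra2b and Srrm2), 8 were higher and 12 lower in Pax7KR, with a median log2 fold change of -0.02. Of the 15 SR protein kinases and import receptors, 10 were higher and 5 lower. Of the 37 core snRNP and splice site proteins, 15 were higher and 22 lower, of the 24 tissue-regulated splicing factors 6 and 18, of the 19 other hnRNP-class proteins 7 and 12, and of the 17 nonsense-mediated decay factors 9 and 8. An unadjusted p under 0.05 was found in 1 gene each for the SR-related proteins, the kinases, the core proteins and the decay factors, and in 0 genes of the other lists.

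The gene with the smallest p among the decay factors was Upf3a, which modulates that pathway, with 27.2, 30.3 and 30.5 CPM in Pax7WT and 36.4, 33.8 and 33.7 in Pax7KR, without overlap (log2 fold change 0.24 ± 0.09 SE, edgeR, unadjusted p = 0.0153, adjusted p = 0.992). In the other lists it was Dyrk1a (a nuclear kinase, log2 fold change 0.18), Snrpd3 (a core Sm protein, -0.16), Rsrp1 (-0.17), Msi2 (-0.13) and Rbm4 (0.21), with unadjusted p-values from 0.0345 to 0.0684 and adjusted p-values of 0.992 in edgeR.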

How the data were processed

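RNA from sorted cells was made into libraries with the NEBNext Ultra II Directional kit from 15 ng per sample and read as pairs on a NextSeq 500. How the RNA was selected is not given in the sources used here. Transcripts were quantified by the authors with salmon (version 1.3.0) against GENCODE transcripts with genomic decoy sequences. The authors deposited, per transcript, estimated counts that are not normalized, TPM values and effective lengths. A deposited table of the authors' own comparison (fold changes and p-values) was not used.

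The estimated counts were assigned to genes through GENCODE M21 on the same build, which held 139791 of 140992 transcripts (the rest took 0.592% to 0.634% of reads), summed per gene and rounded. Testing by genotype took the genes that reached 5 reads in at least 2 libraries, with edgeR (version 4.0.16, TMM, quasi-likelihood) and transcript use with its diffSpliceDGE. Ratios of classes were tested with limma (version 3.58.1) on log2 values with 0.5 reads added, for genes with a mean of 10 or more reads in both classes. The Benjamini-Hochberg adjustment ran over all features of a test, with a cut-off of 0.1. These ran in R (version 4.3.3), and other steps in Python (version 3.11.15). DESeq2 (version 1.42.0), limma-voom, other normalizations, filters, offsets, cut-offs, pseudocounts, a replicate block and leaving out each library were alternatives. The steps were tested on simulated data. The tests of transcript use and of the class ratios missed many of the changes put into them, and the test of transcript use also called unchanged transcripts, so few calls there do not show that use was the same. Shared sequence was counted as the percent of all 31-base words in the transcripts of a gene also found in another gene.

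The members and lists were chosen with earlier results of these data known. Values by library are given for the 3 most abundant genes of each family, up to 5 per direction with the smallest p, 6 transcripts and 3 genes per ratio with the smallest p, and the smallest p of each further list, and the 5 genes with the highest decay share are named with it. Of the 6 transcripts, 1 is not reported here. Other members are named with their level, and Srsf3, Hnrnpu, Hnrnpa1, Srsf5 and March2 were given ratios or levels after their values were seen. Genes named for their direction in TPM, or for a p without 1 library, were also chosen after their values were seen.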

Additional observations from a re-analysis of the deposited data

How the results depend on the processing

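No SR protein or hnRNP gene was called under any of the alternatives of the gene test. Over all genes, against 0 in the main test, DESeq2 called 30, DESeq2 with the length offset 45, edgeR without a filter 157 and edgeR with a replicate block 13. Leaving out 1 library gave 1 to 32 genes (32 without Pax7KR replicate 3) and 0 members. With the block, 152 transcripts with shifted use were called against 217, and 0 genes by either ratio as in the main test. The correlation between samples with the same number was 0.002, 0.04 and -0.06. Between samples with different numbers it ran from -0.08 to 0.08. So few samples per genotype cannot show whether a shared number marks a pairing. Transcripts with shifted use numbered 217 in the main test, 113 at a cut-off of 0.05, 140 by limma on shares and 3 with at least 10 reads in every library, and ran from 160 to 266 without 1 library. Hnrnpk-231 was not called under any of these 3 alternatives (0 member transcripts called) and was called with the block. Without 1 library, 0 to 1 member transcripts were called (0 without Pax7KR replicate 1 or 2). The transcript called without Pax7WT replicate 1 was Hnrnpf-209. Decay ratios ran from 0 to 1 gene called (1 without Pax7KR replicate 2) and retained intron ratios from 0 to 2 (2 without Pax7WT replicate 2, 1 without Pax7KR replicate 2).

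The log2 fold change of Srsf5 reversed to 0.0209 and that of Srsf1 to -0.0102 with the length offset in edgeR, and to 0.0214 and -0.0095 with it in DESeq2. Without 1 library, Srsf2 ran from -0.0834 to 0.0191, Srsf1 from -0.0523 to 0.0725 and Hnrnph1 from -0.0659 to 0.0309. The cause of these changes was not tested. Hnrnpm stayed between 0.09 and 0.15 without 1 library. With 3 libraries per genotype, differences within the 95% intervals given are not excluded. These intervals are not a limit of detection, since a call needed an adjusted p under 0.1 over all features tested. The division of reads between transcripts carries an error that no fit here includes.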
